A study of Raphidocelis subcapitata with 270 samples.

Results

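Gene expression after exposure to 1(2H)-phthalazinone was examined in 24 of the 270 libraries of the series, chosen by their column labels. They comprise 21 libraries of algae exposed to the compound, 3 at each of 7 labelled dose levels (D1 to D7), and the 3 libraries of the solvent control dimethyl sulfoxide (DMSO) that is labelled for this compound and gabapentin together. All 8 groups were the green alga Raphidocelis subcapitata in exponential growth, kept for 24 h with compound or solvent at 24 °C under constant light of 4300 lux, and no group carried another agent or a genetic change. The labels give no strain and no concentration for a level. The series text describes a dilution series that typically ran between 66.7 and 0.021 µM, without saying at which end D1 lies, so a level is a label here and a slope over level numbers is not a slope over dose. Whether the replicates of a group, lettered A, B and C, were separate cultures is not stated in the labels, and the p-values therefore reflect variation among these replicates, part of which may be technical.

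Raphidocelis subcapitata is a unicellular freshwater alga that is a standard organism of growth inhibition tests. 1(2H)-Phthalazinone is a lactam in which a benzene ring is fused to a ring with adjacent nitrogen atoms, and this bicyclic core is found in drugs such as azelastine and olaparib. Exposure of one species to a series of dilutions, with expression of all genes as the readout, is used to ask at which exposure transcription departs from the solvent control and which genes depart together. Transcripts were counted at their 3′ ends, so a count reflects the number of transcripts and depends little on their length. The files do not pair the gene identifiers with names, and genes are therefore given by identifier, with no role stated. Changes in the number of cells and changes in RNA per cell cannot be told apart in such bulk samples, and each value is a share of the library's counts.

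The libraries held between 596651 counts (D6 replicate B) and 1278303 counts (DMSO replicate C), with a median of 1008308. Of 13429 genes in the table, 9255 (68.9%) had enough counts to be tested. The libraries lettered A had the highest score on the first principal component of log2 expression in 8 of 8 groups, so the letter went with the main axis of variation, which held 10.8% of the variance. What the letter marks is not given, and results that move with these libraries are given below with and without them. The second component (7.92%) ordered the groups largely by level number. On it the DMSO libraries scored between −12.3 and −13.6, and the D1 libraries between 11.5 and 17.7. The group means were 8.25 at D2, 5.65 at D3, −2.51 at D4, −1.85 at D5, −4.90 at D6 and −6.94 at D7. D1 was thus farthest from DMSO and D7 nearest on this axis, with D4 and D5 in reverse order. The libraries within a level spread widely, and this spread also went with the letter. Replicate C scored highest at every level but D7, though not in DMSO. At D3 replicates A, B and C scored −3.40, 2.74 and 17.6, the last as high as the D1 libraries.

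**Figure D1:**
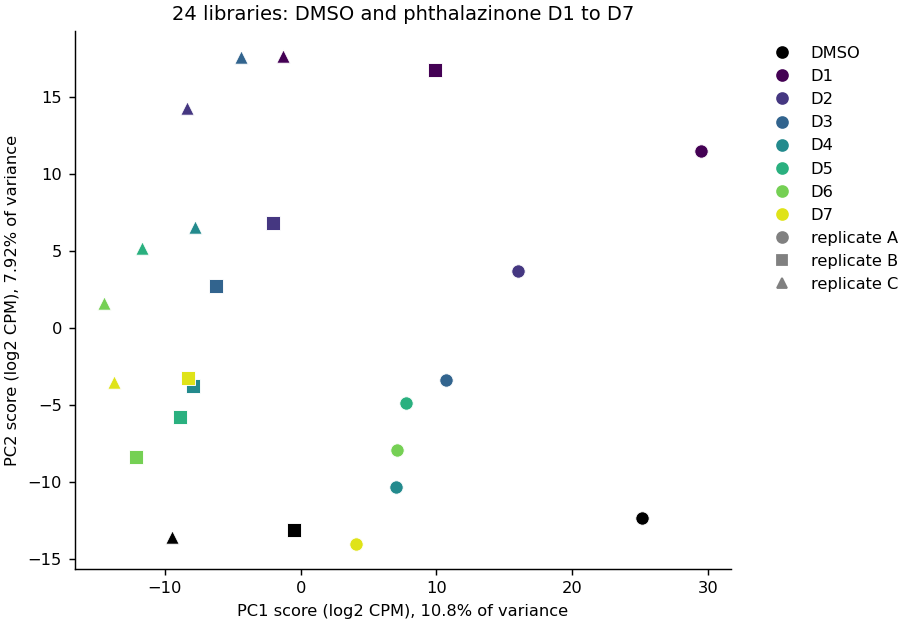
Scores of the 24 libraries on the first and second principal components of log2 CPM, with colour for the group and marker shape for the replicate letter. The A libraries lie to the right within every group. By their means the groups run from D1 at the top (libraries at 11.5 to 17.7) to DMSO at the bottom (−12.3 to −13.6). The groups overlap. D2 C (14.3) and D3 C (17.6) lie in the D1 range, and D7 A (−14.1) lies below DMSO.

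At D1, 108 genes rose and 61 fell relative to DMSO (adjusted p under 0.05, edgeR's quasi-likelihood test with Benjamini-Hochberg adjustment), which is 1.17% and 0.659% of the genes tested. Most changes were small. The median size was 0.74 on the log2 scale, and 35 genes changed by more than 2-fold, of which 12 rose and 23 fell. The genes that rose were abundant ones, with a median of 210 CPM (counts scaled to the library total) in DMSO, against 100 CPM for those that fell and 38.6 CPM for all genes tested. Together the 108 genes took 4.72% ± 0.235 of all counts in DMSO (SD, n = 3) and 6.96% ± 0.142 at D1, and the 61 genes took 1.41% ± 0.0794 and 0.874% ± 0.0101. These shares describe genes chosen on the same libraries and carry no test. The number called at D1 fell to 83 when DMSO B was left out, to 87 for D1 B and to 91 for D1 C, and was 218 when DMSO A was left out, then with 107 higher and 111 lower. A fit of the D1 and DMSO libraries alone called 23, of which 19 were higher and 4 lower. In a fit without the 8 A libraries the number called at D1 was 295, with 156 higher and 139 lower. With the replicate letter as a block it was 355, with 206 higher and 149 lower.

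The calls were uneven over abundance. When the tested genes were divided into 4 equal groups by their mean count, the groups held 10, 18, 24 and 117 of the genes called at D1, from the least to the most abundant. The smallest change called was 1.41 on the log2 scale in the first of these, where genes averaged at most 19.0 counts per library, then 0.86 and 0.72, and 0.35 in the most abundant. These are the smallest changes that happened to be called, not limits of detection.

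The 2 largest rises among genes that were also called over all levels, with D1 and DMSO libraries fully apart, were those of Rsub_05036 and Rsub_10133. Rsub_05036 stood at 56.8, 54.3 and 49.6 CPM in DMSO replicates A, B and C and at 140.4, 115.5 and 119.4 CPM at D1. All 3 D1 libraries lay far above all controls, and the gene rose by a log2 fold change of 1.22 ± 0.18 (SE; adjusted p = 4.56e-05). It was at 79.5 ± 7.20 CPM at D2 and 85.3 ± 18.2 CPM at D3, where every library lay above every DMSO library, but neither difference passed the test (adjusted p = 0.217 and 0.135). From D4 to D7 its means lay between 57.5 and 65.7 CPM. Rsub_10133 stood at 676, 566 and 534 CPM in DMSO and at 1495, 1434 and 1078 CPM at D1, and rose by 1.17 ± 0.15 (adjusted p = 4.32e-06). Its mean was 830 CPM at D2 and 682 CPM at D3, and then 503 to 511 CPM at every level from D4 to D7, slightly under the DMSO mean of 592 CPM.

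The 2 largest falls by the same rule were those of Rsub_04324 and Rsub_02610. Rsub_04324 was at 46.8, 60.3 and 41.9 CPM in DMSO, at 22.4, 22.2 and 12.4 CPM at D1, and at 31.1, 11.03 and 11.7 CPM at D2. The libraries of both levels lay below all DMSO libraries. The fall was −1.41 ± 0.29 on the log2 scale at D1 (adjusted p = 0.00428) and −1.48 ± 0.30 at D2 (adjusted p = 0.0214), whereas at D3 the mean was 41.1 CPM, just under the lowest DMSO library. The D1 call was lost without DMSO replicate B (−1.24) and without D1 replicate C (−1.15). Rsub_02610 was at 408, 302 and 184 CPM in DMSO and at 154.6, 104.9 and 94.5 CPM at D1. Its controls were widely spread, all 3 D1 libraries lay below them, and it fell by 1.34 on the log2 scale (SE 0.21, adjusted p = 0.000112). The means rose through 179 CPM at D2, 219.9 CPM at D3 and 255 CPM at D4 to 282 CPM at D5, and were 259.6 CPM at D6 and 277 CPM at D7.

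**Figure D2:**
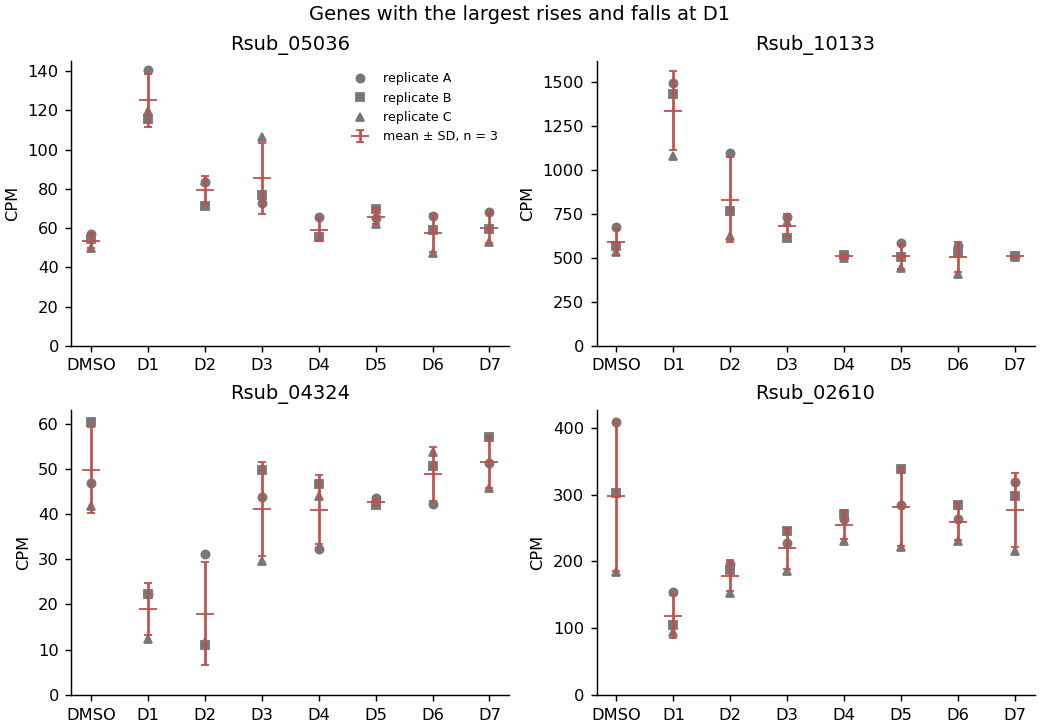
CPM of the genes with the largest rises (Rsub_05036, Rsub_10133) and falls (Rsub_04324, Rsub_02610) at D1 by the rule for named genes. The rule takes genes with a mean of at least 10 counts, called at D1 and over all levels, with D1 and DMSO libraries fully apart. Larger changes were called at D1 in genes outside this rule. Each point is 1 library, with marker shape for the replicate letter and bars for the mean ± SD (n = 3). The D1 libraries are fully apart from DMSO in all 4 genes by that choice. At D4 the mean of each gene is within the range of its DMSO libraries or close to it (58.9 CPM, just above, for Rsub_05036).

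At the other levels few or no genes passed in the test that left out the replicate letter. There were 16 at D2 (0.173%; 9 higher, 7 lower), 12 at D3 (0.13%; 7 higher, 5 lower) and 11 at D5 (0.119%; 8 higher, 3 lower). No gene passed at D4, D6 or D7 (0% each) in edgeR's quasi-likelihood test without the replicate letter. With the letter as a block, the same test called 138 genes at D2, 114 at D3 and 93 at D5, of which 84, 72 and 75 were higher. It called 41, 28 and 21 genes at D4, D6 and D7, of which 34, 27 and 20 were higher. Before adjustment and without the block, p was under 0.05 for 805, 651 and 486 of the 9255 genes tested at these levels. A share of 0.05 of the genes tested is expected to have such a p with no change at all, and the D7 count is close to that. The numbers called by DESeq2 at these levels were 6, 5 and 0. A test over all 7 levels at once called 116 genes (1.25%), or 71 without D1 replicate B and 350 without the A libraries. All of these comparisons share the same 3 DMSO libraries. The small counts turned on single libraries. At D2 there were 48 without DMSO replicate A (11 higher, 37 lower), 5 without D2 replicate A, and 2 without DMSO replicate B, D2 replicate B or D2 replicate C. At D3 the count was 59 (12 higher, 47 lower) if DMSO A was omitted and 28 if D1 A was omitted. It was 7 without D7 replicate A, 2 without DMSO replicate B, 1 without D3 replicate B and 0 without D3 replicate C, and 3 without DMSO C, D1 B, D2 B, D4 B, D5 A, D5 B, D6 C, D7 B or D7 C. At D5 there were 0 without DMSO A, D5 A or D5 C, 3 without DMSO B, DMSO C or D5 B, 4 without D7 A and 7 without D6 B. There was 1 at D5 without D2 B, D2 C, D3 B, D3 C, any D4 library, D6 C, D7 B or D7 C. Without the 8 A libraries the counts from D2 to D7 were 82, 209, 57, 66, 21 and 2.

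**Figure D3:**
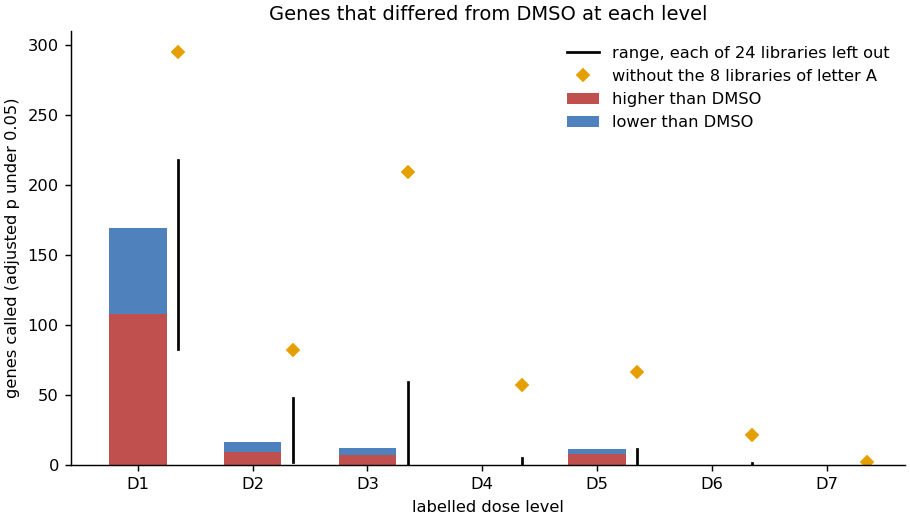
Number of genes called against DMSO at each level (bars, split into higher and lower), with the range when each of 24 libraries is left out in turn (black lines) and the count without the 8 libraries of letter A (diamonds). D1 has the most calls both among the bars (169) and among the diamonds (295), followed among the diamonds by D3 (209).

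The smallest p over all levels belonged to Rsub_10133 and Rsub_04768 among genes higher at D1, and to Rsub_03606 and Rsub_02610 among those lower. Rsub_04768 stood at 1036, 1147 and 1210 CPM in DMSO and at 2569, 2234 and 1971 CPM at D1, which is 1.00 ± 0.12 on the log2 scale (adjusted p = 3.53e-06). Its mean was 1577 CPM at D2, where all 3 libraries were still above DMSO, and 1315 CPM at D3, and it ended between 992 and 1087 CPM from D4 to D7. Rsub_03606 had another profile. It was at 253, 364 and 311 CPM in DMSO and at 238, 206 and 192 CPM at D1, all below the controls, but every library from D4 to D7 lay above the highest DMSO library, with means of 418, 428, 387 and 386 CPM. Its fall at D1 was −0.55 ± 0.14 (adjusted p = 0.0220), while none of its values at D4 to D7 passed the test (adjusted p = 0.321, 0.213, 0.616 and 0.838). Against the mean of D2 to D7, D1 was lower by −0.80 ± 0.11. The D1 call was lost without DMSO B (−0.42), D1 B (−0.53) or D1 C (−0.48), and in a joint fit with the gabapentin libraries (−0.55).

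The genes called at D1 were then followed over D2 to D7. A slope over the level numbers D2 to D7 compares neither the D1 nor the DMSO libraries, although all 24 libraries shared 1 fit and so its filter, scaling and spread estimate. This contrast was chosen after the data had been seen. Of the 108 genes that rose at D1, 104 (96.3%) had a negative slope, meaning a lower level toward D7. Of the 61 that fell, 56 (91.8%) had a positive slope. Over all 9255 genes tested, 4546 slopes were negative and 4709 positive. The median slope was −0.065 log2 units per level number for the genes that rose, 0.075 for those that fell and 0.001 for all genes. When each library was left out in turn and the D1 genes were chosen again, the shares ran from 88.9% to 100.0% and from 88.1% to 96.7%. With the slope fitted on the D2 to D7 libraries alone, it was negative in 103 of the 107 genes tested among the 108, and positive in 56 of the 60 tested among the 61, against 4614 negative and 4542 positive of all 9156. When the D1 genes were also chosen on the D1 and DMSO libraries alone, so that no library was shared at any step, 18 of 18 higher genes had a negative slope and 4 of 4 lower genes a positive one.

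**Figure D4:**
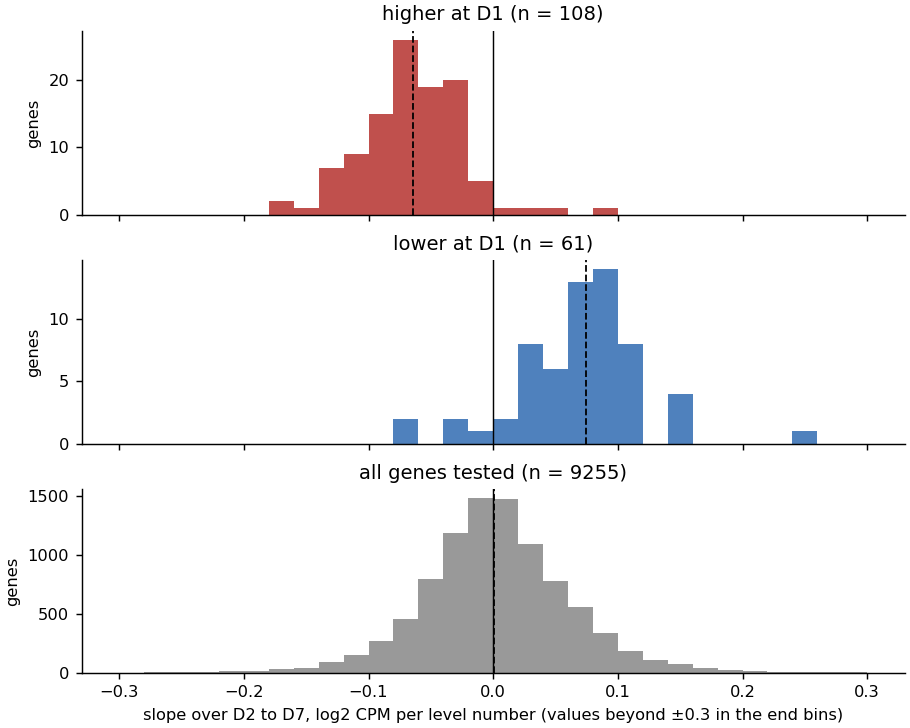
Histograms of the slope of log2 CPM over the level numbers D2 to D7 for the 108 genes higher at D1, the 61 lower at D1 and all 9255 genes tested, with a solid line at 0 and a dashed line at each median. The upper panel lies mostly left of 0 (104 of 108 genes), the middle panel mostly right of it (56 of 61), and all genes are centred near 0.

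D2 was most often the extreme level. Among D2 to D7, the mean was highest at D2 for 87 of the 108 genes that rose at D1 (80.6%), against 19.5% of all genes tested. The mean was lowest at D2 for 35 of the 61 that fell (57.4%), against 18.6% of all genes. D2 lay above D7 in 103 of the 108, in 5 of the 61, and in 4657 of all 9255. Relative to DMSO, the median log2 value of the 108 genes was 0.68 at D1, 0.37 at D2 and 0.24 at D3, and 0.09, 0.07, 0.03 and 0.02 from D4 to D7. For the 61 genes it was −0.88, −0.51 and −0.36 at D1 to D3 and −0.33, −0.24, −0.25 and −0.14 from D4 to D7. These medians share their DMSO libraries, and the D1 values are those that chose the genes. The share of counts taken by the 108 genes was 5.81% ± 0.225 at D2, 5.29% ± 0.120 at D3 and 4.92% ± 0.0877 at D4, and lay between 4.75% and 4.83% from D5 to D7, near the DMSO value of 4.72%. For the 61 genes it was 1.01% at D2, 1.09% at D3 and 1.20% at D4, and 1.31% ± 0.0252 at D7, against 1.41% in DMSO.

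Singly, 8 genes had a slope over D2 to D7 that passed the test, 2 upward (0.0216%) and 6 downward (0.0648%). Of these 8, 7 were also called at D1, and in all 7 the slope ran opposite in sign to the change at D1. DESeq2 called 51. The count was 30 without DMSO A, 20 without D6 A, 15 without DMSO C, 13 without D5 A, 5 without D2 B, D3 C, D6 B or D7 A, 4 without D2 A or D7 B, and 46 without all A libraries. Rsub_09796 had a slope of −0.13 ± 0.02 per level (adjusted p = 0.000639). Its libraries stood at 755, 645 and 581 CPM at D2, 629, 571 and 611 CPM at D3, 472, 538 and 531 CPM at D4, and 395, 429 and 467 CPM at D7. All libraries at D2 and D3 were above the DMSO libraries (444, 479 and 450 CPM), those at D4 reached into their range, and those at D7 lay within or below it. This gene was also called at D2 (0.53 ± 0.12, adjusted p = 0.0363). Rsub_04324, described above, had a positive slope of 0.24 ± 0.05 (adjusted p = 0.0242).

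Over all levels D1 to D7, the slope passed the test for 110 genes upward (1.19%) and 146 downward (1.58%), or for 164 in all without D7 replicate C. Among levels D1 to D7, with DMSO left out of the comparison, 97 genes differed (1.05%), with 57 left when D1 B was omitted and 64 when D1 C was. With D1 set against the mean of D2 to D7, 144 genes were higher at D1 (1.56%) and 83 lower (0.897%), and the sum fell from 227 to 106 when D1 B was omitted and to 114 for D1 C, and was 372 when the A libraries were omitted. These contrasts set treated libraries against each other, and the DMSO libraries bear on them only through filtering, scaling and the shared spread estimate.

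Rsub_00393 and Rsub_09796 had the smallest p for D1 above the other levels among genes not yet named by an earlier part of the rule. Rsub_00393 was at 2540, 2228 and 2085 CPM at D1 and its means were 1724, 1414, 1247, 1207, 1154 and 1190 CPM from D2 to D7, with 1338 CPM in DMSO. D1 exceeded the mean of D2 to D7 by 0.80 ± 0.08 on the log2 scale (adjusted p = 6.80e-09), and no library of the other levels reached the lowest D1 library. For Rsub_09796, with D1 libraries at 972, 906 and 760 CPM, the difference was 0.78 ± 0.08 (adjusted p = 4.49e-08), although D2 replicate A (755 CPM) came within a few CPM of D1 replicate C.

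Rsub_11690 and Rsub_02737 were the matching genes below the other levels at D1. Rsub_11690 stood at 66.1, 63.6 and 79.6 CPM at D1 and at 119, 109 and 116 CPM at D2, and its means lay between 113 and 160.1 CPM at all levels from D2 to D7. Its DMSO libraries (101, 137 and 168 CPM) spanned all of that range. D1 was lower than the mean of the other levels by −0.94 ± 0.15 (adjusted p = 3.54e-05). Rsub_02737 stood at 287, 220.4 and 189.9 CPM at D1, against means of 314, 333, 382, 393, 424 and 406 CPM from D2 to D7 and 396 CPM in DMSO, a difference of −0.69 ± 0.11 (adjusted p = 6.30e-05). Unlike in Rsub_11690, its D2 and D3 libraries (291 to 332 CPM and 326 to 347 CPM) also lay below all DMSO libraries, and neither of these levels passed the test (adjusted p = 0.348 and 0.503).

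The slope over all 7 level numbers had its smallest p, among genes not named so far, in Rsub_08554 and Rsub_02890 upward and in Rsub_04163 and Rsub_08944 downward. Rsub_04163 was at 401, 573 and 566 CPM at D1 and fell through means of 383, 334, 266 and 222 CPM at D2, D3, D4 and D5, with 246 and 256 CPM at D6 and D7 and 289 CPM in DMSO. Its slope was −0.17 ± 0.02 per level (adjusted p = 2.85e-08). Rsub_08944 fell from a mean of 1634 CPM at D1 to 904 CPM at D5 and was at 1017 CPM at D7, with a slope of −0.11 ± 0.01 (adjusted p = 5.94e-07). Both genes were higher than DMSO at D1 (0.83 ± 0.14 and 0.58 ± 0.10) and had lower means than DMSO from D4 on, where no difference passed the test. Rsub_08554 rose from 765 CPM at D1 through 879 CPM at D2 to 1040 CPM at D3, and stayed between 1106 and 1163 CPM thereafter (slope 0.09 ± 0.01, adjusted p = 2.01e-05; DMSO 1051 CPM). Rsub_02890 rose from 365 CPM at D1 to 632 CPM at D7, with 451, 616 and 794 CPM in the DMSO libraries (slope 0.12 ± 0.02, adjusted p = 0.000102).

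With the mean of D2 to D7 set against DMSO, 23 genes were higher (0.249%) and 18 lower (0.194%), with a median log2 value of 0.69 and −0.65. Both the count and its split by direction turned on single DMSO libraries. Omitting DMSO A gave 7 higher and 44 lower, and omitting DMSO C gave 36 higher and 4 lower. The count was 3, all higher, without DMSO replicate B and lay between 16 and 26 without D1 B, D2 C, D3 B, D3 C, D4 B, D4 C, D5 C, D6 B, D6 C or D7 B, and it was 221 without the A libraries.

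Rsub_05642 was the 1 gene called higher at 4 levels, and Rsub_11038 was 1 of 3 called higher at 3, chosen among these by its mean change. Rsub_11038 stood at 128, 118 and 164 CPM in DMSO, and every one of the 21 treated libraries lay above these, with level means between 187 and 219 CPM. D2, D3 and D5 passed the test (0.61 ± 0.14, 0.65 ± 0.14 and 0.67 ± 0.14; adjusted p = 0.0489, 0.0428 and 0.0474), and D1 did not (0.45 ± 0.14, adjusted p = 0.0933). The calls at D2, D3 and D5 were each close to the threshold and were lost in 22, 12 and 15 of the 24 fits that left out 1 library. The mean of D2 to D7 was 0.59 above DMSO on the log2 scale (adjusted p = 0.00948), while D1 against D2 to D7 gave −0.14 ± 0.11 (adjusted p = 0.592). Rsub_05642 differed from it in shape. Its DMSO libraries spread from 1131 through 1714 to 1995 CPM, its D1 libraries stood at 3076, 2842 and 3338 CPM, and its means declined through 2833, 2504, 2236, 2380, 2113 and 2037 CPM from D2 to D7. D1, D2, D3 and D5 passed the test, with log2 values of 0.93, 0.81, 0.63 and 0.56 (adjusted p = 1.09e-05, 0.000929, 0.0279 and 0.0474), and every library from D1 to D5 lay above the highest DMSO library. The calls at D1 and D2 were kept in all 24 such fits, that at D3 was lost without D3 B or D3 C, and that at D5 was lost in 19.

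Rsub_12655 and Rsub_00160 were the matching genes below DMSO. Rsub_12655 stood at 390, 370.1 and 454 CPM in DMSO, and all 21 treated libraries lay below these, with means of 265, 267, 264, 303, 263, 300.5 and 323 CPM from D1 to D7. D1, D2, D3 and D5 passed the test at values between −0.60 and −0.62 (adjusted p between 0.00709 and 0.0474), and the D1 call was lost without DMSO C (−0.53) or D1 C (−0.51). Its calls at D2, D3 and D5 were lost in 10, 14 and 18 of the 24 fits. Rsub_00160 stood at 172, 251 and 264 CPM in DMSO, at 129, 166 and 167 CPM at D1, at 112, 120.3 and 142 CPM at D2 and at 139.5, 149 and 122 CPM at D3. These 3 levels lay below all DMSO libraries, with log2 values of −0.58, −0.88 and −0.75, whereas at D4, D5 and D7 some libraries lay above DMSO replicate A. Its D1 call (adjusted p = 0.0399) was lost without DMSO B (−0.51), DMSO C (−0.47), D1 A (−0.47), D1 B (−0.63) or D1 C (−0.64). The D2 call was lost without D2 A, D2 B or DMSO B, and the D3 call in 13 of the 24 fits.

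**Figure D5:**
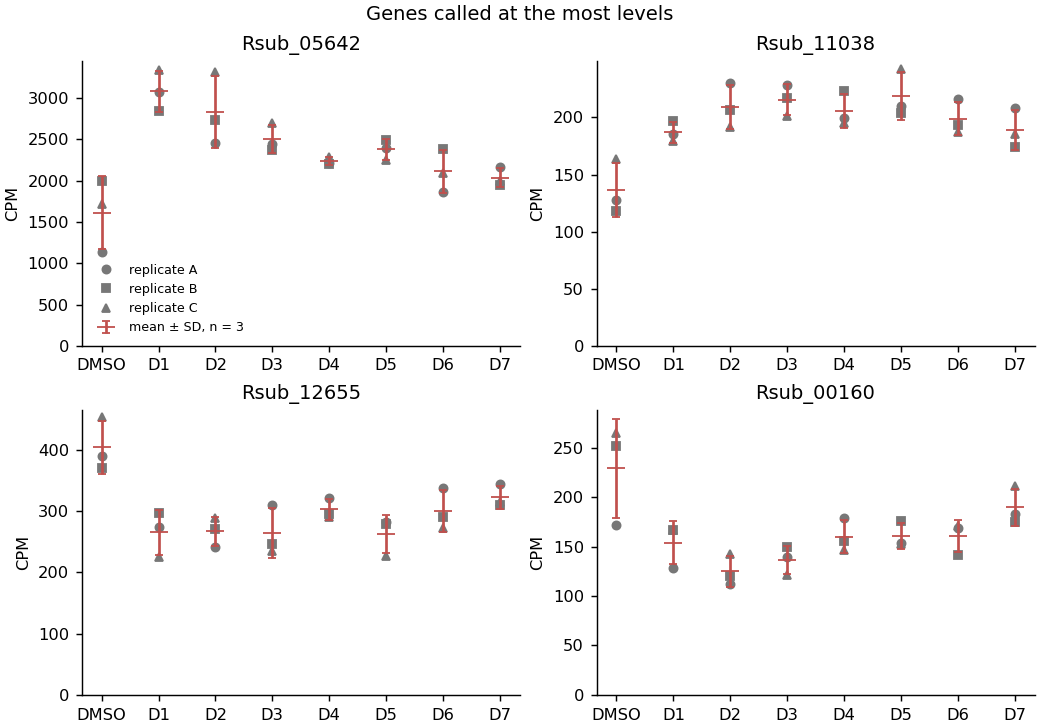
CPM of the genes called at the most levels, above DMSO (Rsub_05642, Rsub_11038) and below it (Rsub_12655, Rsub_00160), with 1 point per library, marker shape for the replicate letter, and bars for the mean ± SD (n = 3). All treated libraries of Rsub_11038 and Rsub_12655 are on one side of the 3 DMSO libraries, Rsub_05642 declines from D1 to D7, and Rsub_00160 overlaps with DMSO at D4, D5 and D7.

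Phthalazinone was compared with gabapentin, an anticonvulsant whose libraries share its DMSO controls, by testing the treated libraries against each other in a joint fit of 45 libraries. At D1, 484 of 9442 genes differed (5.13%), 229 of them higher and 255 lower in phthalazinone. The count was 85 without phthalazinone D1 replicate A, 276 without B and 747 without C, and 322 and 148 without gabapentin D1 replicates B and C. It was 274 without all A libraries and 168 when only D1 and DMSO libraries were fitted. Equal level labels do not imply equal concentrations, since the labels give none.

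The 4 genes named for this comparison differed between the compounds while none of them passed the test against DMSO in phthalazinone. Rsub_06872 stood at 30.4, 39.8 and 27.1 CPM at phthalazinone D1 and at 79.4, 238 and 692 CPM at gabapentin D1. The gabapentin libraries were widely spread and all above, with a difference of −3.38 ± 0.36 on the log2 scale (adjusted p = 8.72e-10). This SE and p use a spread estimated over all groups of the joint fit, not over the gabapentin D1 libraries alone. Over the alternatives run the difference lay between −3.84 and −2.29. Rsub_05299 stood at 412, 392 and 490 CPM against 959, 1048 and 1241 CPM, a difference of −1.32 ± 0.13 (adjusted p = 4.81e-10). Rsub_07846 was higher in phthalazinone, at 1638, 1588 and 1260 CPM against 910, 934 and 837 CPM (0.74 ± 0.10, adjusted p = 2.44e-06), and so was Rsub_07629, at 1644, 1217 and 865 CPM against 733, 651 and 513 CPM (0.97 ± 0.15, adjusted p = 2.83e-05). All 4 genes were fully apart between the compounds. Against DMSO at D1 their adjusted p in phthalazinone was 0.822, 0.173, 0.0768 and 0.475, in the order given.

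The contrast of D1 with the mean of D2 to D7 has no library in common between the compounds, and this comparison with gabapentin was chosen after the data had been seen. In gabapentin it called 537 genes higher (5.78%) and 514 lower (5.54%). Of the 144 genes higher at D1 in phthalazinone, 88 (61.1%) were among the 537, of which they made up 16.4%, and of the 83 lower, 44 (53.0%) were among the 514, of which they made up 8.56%. None was called in the opposite direction. Without the A libraries the shares of the phthalazinone genes were 45.5% and 43.2%.

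The D1 genes were also looked up at D1 of 3 compounds tested against DMSO libraries other than those of phthalazinone. Metribuzin-DA and 2-tert-butyl-4-methoxyphenol share the same DMSO libraries, so their calls are not independent of each other. Hydrochlorothiazide has a different set. In metribuzin-DA, a breakdown product of the herbicide metribuzin, 33 genes were higher (0.358%) and 49 lower (0.532%). The 108 genes that rose in phthalazinone included 11 of the 33 (10.2% of the phthalazinone genes, 33.3% of the others), the 61 that fell included 5 of the 49 (8.20% and 10.2%), and 1 gene was called in the opposite direction. In hydrochlorothiazide, a diuretic, 58 genes were higher (0.641%) and 75 lower (0.829%). Of these, 22 were among the 108 (20.4% and 37.9%) and 8 among the 61 (13.1% and 10.7%), with none in the opposite direction. In 2-tert-butyl-4-methoxyphenol, an antioxidant food additive, 981 genes were higher (10.4%) and 747 lower (7.92%), of which 50 were among the 108 (46.3% and 5.10%) and 14 among the 61 (23.0% and 1.87%). There, 9 of the 108 and 2 of the 61 were called in the opposite direction.

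The median log2 value of the 108 genes was 0.32 in metribuzin-DA, 0.42 in hydrochlorothiazide and 0.46 in 2-tert-butyl-4-methoxyphenol, where the median of all genes tested was 0.00, 0.01 and 0.02. For the 61 genes the medians were −0.25, −0.34 and −0.07. Among the named genes, Rsub_04768 and Rsub_00393 were called higher in all 3 compounds, with values between 0.88 and 1.68 for the first and between 0.68 and 1.10 for the second. Rsub_04163 was likewise called in all 3, at 0.83, 0.62 and 1.56. Rsub_02610 was called lower in all 3, at −0.58, −0.85 and −0.74, and so was Rsub_02737, at −0.71, −0.54 and −0.50. Rsub_12655, Rsub_11690 and Rsub_00160 were called in none of the 3. Rsub_00160 stood at −0.18, −0.28 and 0.52 (adjusted p = 0.785, 0.534 and 0.107). Rsub_12655, below DMSO in all treated phthalazinone libraries, stood at −0.30, −0.39 and 0.09 at D1 of the 3 compounds (adjusted p = 0.350, 0.141 and 0.782), and Rsub_11690 stood at −0.21, −0.42 and 0.32 (adjusted p = 0.691, 0.204 and 0.252). Rsub_11038 did not differ detectably from DMSO in metribuzin-DA or hydrochlorothiazide (adjusted p = 0.904 and 0.987) and was higher by 1.48 in 2-tert-butyl-4-methoxyphenol.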

How the data were processed

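The deposited values are raw read counts per gene in 1 table per compound. Per the labels' protocols, total RNA from algae in 96-well plates went into a 3′ mRNA library kit with molecular identifiers. The tools named in the submitters' processing notes are featureCounts 2.0.6, SAMtools 1.15.1, STAR 2.7.10a and fastp 0.23.2. Not given in the sources used here are the genome build, annotation, strand setting and any collapsing by molecular identifier. Uncollapsed counts would include PCR copies, and near-identical or overlapping genes may share reads.

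The counts of the 24 libraries were analysed with edgeR 4.0.16 in R 4.3.3: filterByExpr with default settings, TMM scaling, glmQLFit with 1 coefficient per group over all 8 groups, and glmQLFTest, with Benjamini-Hochberg adjustment within each test over all genes tested. A gene is called when its adjusted p is under 0.05. An SE is the absolute log2 value divided by the square root of F. CPM use TMM-scaled totals, and values after ± are SD for CPM and shares and SE for log2 values and slopes. The DMSO counts were identical in the tables of both compounds that share them (0 differing). Chi-square values per degree of freedom for the 24 pairs of libraries within groups were 1.62 to 6.60, above sampling noise, and no library was counted as a duplicate. The script was tested on simulated counts.

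Named genes, with a mean of at least 10 counts, were at most 2 higher and 2 lower per comparison, by largest change for D1 with libraries fully apart, by most levels called, or by smallest p. The compounds, lists and tests were chosen with earlier results of these data known. No gene list was used, since no names were given. Alternatives were DESeq2 1.42.0, RLE scaling, no filter, a minimum mean of 10 counts, the letter as a block, a joint fit, and leaving out each library or all A libraries. The fit without A libraries, the separate fits of D1 with DMSO and of D2 to D7, the omissions for genes called at several levels and the slope over D2 to D7 were added after the data had been seen.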

Additional observations from a re-analysis of the deposited data

Results flagged for a closer look

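Rsub_06872 differed between the compounds at D1, with a log2 value of −3.38 in phthalazinone relative to gabapentin, by a direct test of treated libraries in edgeR's joint fit. Over the alternatives run it lay between −3.84 and −2.29. Rsub_05299 differed by −1.32 in the same test. Rsub_07846 and Rsub_07629 differed in the other direction, by 0.74 and 0.97. None of the 4 had passed the test against DMSO at phthalazinone D1, and their causes were not tested.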

How the results depend on the processing

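The main test left out the replicate letter, since the labels do not say what it marks. By the criterion used, a correlation over 0.1 between deviations, 33 of 84 pairs of same-letter libraries counted as paired. The letter still carried structure. Same-letter correlations ran from −0.072 to 0.211 (median 0.074), against a median of −0.039 for different letters. Of the 24 libraries, 20 matched their own letter best. With a replicate block, 340 genes were called over all levels, 355 at D1, and 138, 114, 41, 93, 28 and 21 from D2 to D7. The block gave 225 among levels, 414 for D1 against D2 to D7, 170 for the mean of D2 to D7, 473 for the slope, 64 for the slope over D2 to D7, 785 against gabapentin, 206 in metribuzin-DA (82 without it) and 386 in hydrochlorothiazide (133 without it). Without the A libraries the counts were 350 over all levels, 295 at D1, 82, 209, 57, 66, 21 and 2 from D2 to D7, 214 among levels, 372 for D1 against D2 to D7, 221 for the mean of D2 to D7, 46 for the slope over D2 to D7 and 274 against gabapentin, and the share of higher genes also called in gabapentin was 45.5%. With no filter they were 318 over all levels, 84, 92, 20, 50, 14 and 21 from D2 to D7, 209 among levels, 103 for the mean of D2 to D7 and 43 for the slope over D2 to D7. The joint fit with gabapentin gave 40, 48, 8 and 21 from D2 to D5, 79 for the mean of D2 to D7 and 23 for the slope over D2 to D7. DESeq2 gave 201 over all levels, 53 at D2, 32 at D3, 6 at D4, 5 at D6, 153 among levels and 51 for the slope over D2 to D7. RLE scaling and the filter at a mean of 10 counts each gave 2 at D4. Fitting D1 and DMSO libraries alone gave 168 genes against gabapentin. With D1 and DMSO in one fit and D2 to D7 in another, 23 genes were called at D1 and 34 for the slope over D2 to D7, and the shares of D1 genes with an opposite slope were both 100.0%.

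With each library left out in turn, the counts ran from 71 to 167 over all levels, 83 to 218 at D1, 2 to 48 at D2, 0 to 59 at D3, 0 to 5 at D4, 0 to 11 at D5 and 0 to 1 at D6 and D7. They ran from 57 to 132 among levels, 106 to 282 for D1 against D2 to D7, 3 to 55 for the mean of D2 to D7, 164 to 337 for the slope, 4 to 30 for the slope over D2 to D7 and 85 to 747 against gabapentin. The shares of D1 genes with a slope opposite to their change ran from 88.9% to 100.0% (higher) and from 88.1% to 96.7% (lower). Of 614 values of named genes under alternatives, 599 kept direction and side of the threshold. The call was lost in 13 and gained in 2 (Rsub_11038 at D1, 0.45 with the block and 0.60 without DMSO C). None changed sign. Each gene entered with 1 contrast only, and the genes had been picked on the same data. Calls at D2, D3 and D5 are not among the 614. In the genes called at the most levels, such calls were lost in 0 (Rsub_05642 at D2) to 22 (Rsub_11038 at D2) of 24 fits. The causes of these differences were not tested. The shallowest library was D6 B, and depth was not varied.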

Other observations

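Between phthalazinone and gabapentin, the direct test called 16, 6, 16, 23, 14 and 46 of 9442 genes tested from D2 to D7. Each is a smaller share than the 5.13% called at D1 with all libraries in the fit. That D1 count fell to 85 without phthalazinone D1 replicate A and to 148 without gabapentin D1 replicate C. At D6 all 14 were lower in phthalazinone, at D4 14 of 16 were lower, at D5 18 of 23 and at D7 33 of 46, whereas at D1 the 484 genes were split into 229 higher and 255 lower. The counts from D2 to D7 were made in the joint fit only, and leaving out single libraries was not run for them. Among the phthalazinone and DMSO libraries, D6 B and D6 C were the shallowest (596651 and 783302 counts). Whether depth bears on the D6 direction was not tested.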
